A study of Mus musculus with 8 samples.

Results

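The 9 genes described are mouse dual-specificity MAP kinase phosphatase genes, Dusp1, Dusp2, Dusp3, Dusp4, Dusp5, Dusp6, Dusp7, Dusp10 and Dusp16. They were chosen by name, with the counts of all 3 groups of mice already known, and all 9 were among the 23413 gene symbols of the count table. Their differences between the groups are therefore given as a description, without p-values. RNA was sequenced from tumor-associated macrophages (TAMs) of 8 male C57BL/6 mice that carried subcutaneous tumors of B16F10, a mouse melanoma line, and were 8 to 10 weeks old at inoculation. DMSO, the vehicle, was given to 2 mice (the route for these mice is not given in the sources used here). Thiostrepton, a thiopeptide antibiotic, was given to 4 mice by I.P. injection (IP in the labels, at a dose the sources do not assign to these mice) and to 2 mice by paratumor S.C. injection (IS in the labels) at 20 mg/kg. Dosing fell on days 6 and 12 of tumor growth. On day 18 the cells of each tumor that were positive for CD45, F4/80 and CD11b and negative for Gr-1 were sorted, giving 1 library a mouse.

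MAP kinase phosphatases remove phosphate from both the threonine and the tyrosine of an active MAP kinase, which switches it off. The kinases they act on are ERK, JNK and p38, which carry signals from growth factors, Toll-like receptors and stress to transcription. Many of these phosphatase genes are themselves transcribed in response to the kinases they switch off, and in macrophages DUSP1 is known as a brake on p38 and JNK signaling after exposure to bacterial products. The family is usually grouped into nuclear, inducible enzymes (DUSP1, DUSP2, DUSP4 and DUSP5), cytoplasmic enzymes that prefer ERK (DUSP6 and DUSP7) and enzymes that prefer JNK and p38 (DUSP10 and DUSP16). DUSP3 is a small atypical member that lacks the docking domain of the others.

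To show the DNA upstream of the genes that differed most between the groups, 210 bases are printed 5′ to 3′ for 4 of them, from 250 to 41 bases before the RefSeq start (GRCm38.p6). Capitals mark matches on either strand to the cAMP response element (CRE, TGACGTCA), to its core TGACG, which lies inside each full CRE, or to the CArG box of serum response factor.
Dusp1, minus strand, chr17:26508513-26508722: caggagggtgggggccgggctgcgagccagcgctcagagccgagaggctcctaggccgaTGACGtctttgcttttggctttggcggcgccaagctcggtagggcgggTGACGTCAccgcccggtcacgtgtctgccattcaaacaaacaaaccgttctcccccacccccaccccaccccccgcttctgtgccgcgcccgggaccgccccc
Dusp2, plus strand, chr2:127335909-127336118: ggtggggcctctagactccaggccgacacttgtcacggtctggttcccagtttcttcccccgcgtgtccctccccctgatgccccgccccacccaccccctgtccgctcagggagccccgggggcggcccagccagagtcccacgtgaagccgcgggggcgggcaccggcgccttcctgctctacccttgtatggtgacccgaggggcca
Dusp5, plus strand, chr19:53528895-53529104: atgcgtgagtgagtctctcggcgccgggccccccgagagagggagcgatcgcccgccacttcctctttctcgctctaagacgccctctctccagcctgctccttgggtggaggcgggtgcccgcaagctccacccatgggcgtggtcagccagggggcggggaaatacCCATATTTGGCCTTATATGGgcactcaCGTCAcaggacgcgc
Dusp6, plus strand, chr10:99262981-99263190: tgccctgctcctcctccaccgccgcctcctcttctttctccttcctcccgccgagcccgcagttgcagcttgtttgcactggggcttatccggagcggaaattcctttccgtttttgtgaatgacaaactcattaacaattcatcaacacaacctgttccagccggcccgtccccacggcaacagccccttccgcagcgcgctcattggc
The Dusp1 stretch held 1 full CRE, from 143 to 136 bases before the start, and 1 further core from 191 to 187 bases before it. The Dusp5 stretch held 2 adjoining CArG boxes, from 82 to 63 bases before the start, and 1 CRE core from 55 to 51 bases before it. The Dusp2 and Dusp6 stretches held no match to these motifs, nor to AP-1 (TGANTCA), the NF-κB motif or the ETS core (CCGGAAGT). Of 32851 stretches of the same length in the RefSeq table, 0.998% held a full CRE, 14% the core TGACG and 1.24% a CArG box. AP-1 was held by 5.84%, the NF-κB motif by 3.29% and the ETS core by 1.63%. Of the 9 genes 8 were in that table, all but Dusp4, and among the other 4 the only match was 1 CRE core upstream of Dusp16. A match is a run of letters, and binding was not measured.

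The libraries held 14127506 to 17577466 counts on genes, so a floor of 3 counts was 0.169 to 0.218 CPM after TMM scaling (counting error only). Macrophage markers were high in every library, with 7 genes summing to 5389 to 6991 CPM and Emr1, the gene of F4/80, at 318 to 1020 CPM. Both S.C. libraries carried more of some other cells' markers. Neutrophil markers (7 genes) summed to 201 and 298 CPM in S.C. mice against 68.8 and 110 in DMSO mice and 26.3 to 113 in I.P. mice. Cxcr2 made up most of the sum in S.C. mouse 1 (171 CPM), and was at 65.3 CPM in S.C. mouse 2. S100a8, S100a9 and Ngp were at 6.46, 15.7 and 4.44 CPM in S.C. mouse 1 and at 64.7, 60.2 and 60.3 CPM in S.C. mouse 2. Melanoma markers (6 genes) summed to 2965 CPM in S.C. mouse 1 and 430 to 1652 CPM in the other 7 libraries. T and NK cell markers (9 genes) summed to 32.9 and 37.4 CPM in S.C. mice against 2.80 to 19.4 in the other mice, and B cell markers (3 genes) to 15.1 and 5.82 against 0 to 1.08. Dendritic cell markers (4 genes) summed to 18.9 and 6.12 CPM in S.C. mice and at most 5.63 CPM elsewhere. These S.C. sums rested on different genes. Cd209a was at 16.6 CPM in S.C. mouse 1 and 0 in S.C. mouse 2, and Xcr1 at 0.1345 and 5.90 CPM. By mean log2 CPM, monocyte markers (4 genes) were highest in the mice that were also highest for Dusp1. Values were 4.32 in I.P. mouse 1 and 4.15 and 5.30 in S.C. mice, against 1.25 to 3.49 in the other 5 mice. Their summed CPM did not keep that order, with 98.0 in S.C. mouse 1 against 110.6 in DMSO mouse 2 and 130.2 in I.P. mouse 4. Among them, Ccr2 was at 12.7 CPM in I.P. mouse 1, 60.7 and 76.7 CPM in S.C. mice and 59.9 and 79.2 CPM in DMSO mice. Fibroblast markers (5 genes, with Pdgfra at 0 in all libraries) stayed at or below 1.23 CPM. I.P. mouse 1 stood apart from the other I.P. mice for several genes, and values of the 9 genes that it moves most are given with and without it. The sample titles carry numbers, and the 3 lowest belong to I.P. mouse 1 and the 2 S.C. mice. What the numbers record is not stated, and their part in the results was not tested.

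In TAMs from S.C. mice, Dusp1, Dusp2, Dusp4 and Dusp5, the 4 nuclear inducible genes, were 3.86- to 14.6-fold higher than in DMSO mice, while Dusp6, the main cytoplasmic ERK phosphatase, was at 0.345 of the DMSO level. I.P. mouse 1 lay beyond both DMSO mice in the same direction for all 5 of these genes, and the other 3 I.P. mice were nearer to the DMSO mice than to the S.C. mice for Dusp1, Dusp2 and Dusp5. Dusp7, Dusp10, Dusp16 and Dusp3 differed by less, or differed between the mice of a group. Genes are called below by the study's thresholds in edgeR, a 2-fold change or more with an unadjusted P under 0.05, applied to the quasi-likelihood test, which the study does not name. All 9 genes passed the filter on low counts in each comparison. Against DMSO, 5 of the 9 were called in S.C. mice, 4 higher and 1 lower, where 5.06% of all 11680 genes tested were called (2.29% higher and 2.77% lower). By I.P., 0 of the 9 were called, where 2.0% of 12174 genes tested were called (1.53% higher and 0.468% lower). The genes were chosen with these values known, so nothing is read from the counts. The median log2 fold change of the 9 genes was 1.19 by S.C. and 0.38 by I.P., and that of all genes tested was 0.02 in both comparisons.

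**Figure D1:**
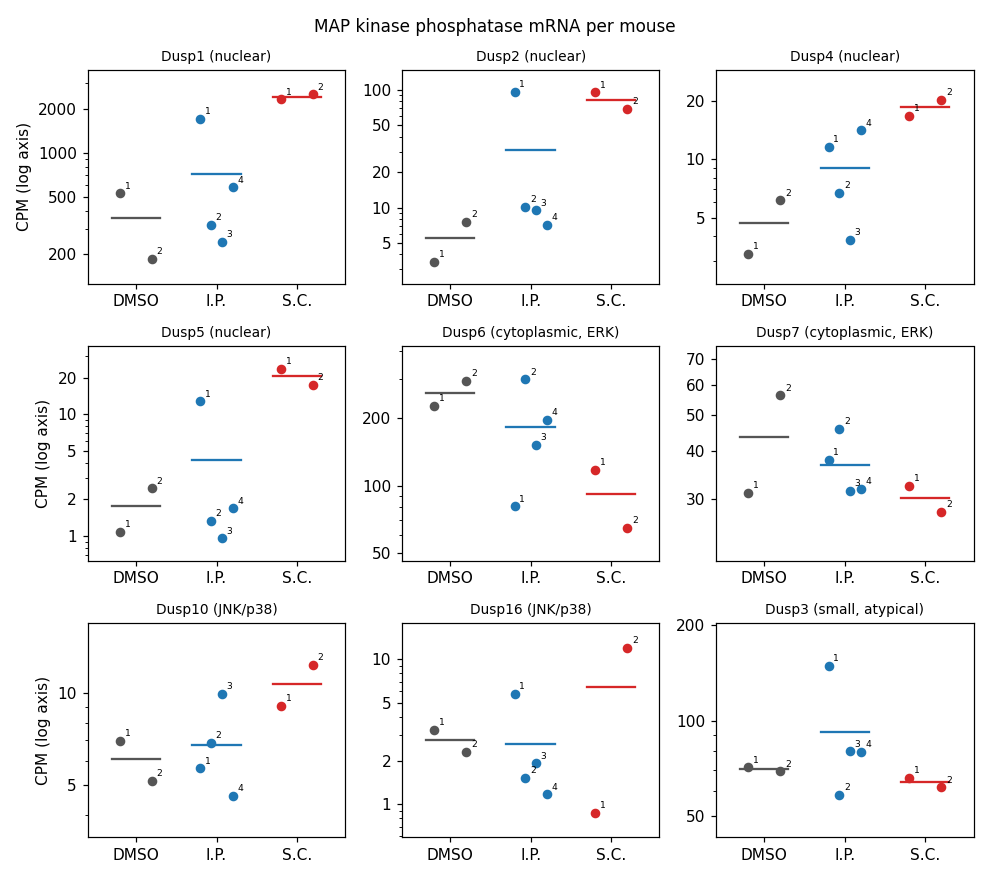
Level of each of the 9 phosphatase genes in every mouse, in CPM on a log axis, for DMSO (n = 2), I.P. (n = 4) and S.C. (n = 2). Points are mice with their numbers and lines are group means. Both S.C. mice lie above both DMSO mice for Dusp1, Dusp2, Dusp4, Dusp5 and Dusp10 and below both for Dusp6 and Dusp3, and I.P. mouse 1 lies apart from the other I.P. mice for Dusp2 (97.0 CPM) and Dusp5 (12.8 CPM).

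Dusp1 encodes MKP-1, the nuclear phosphatase for p38, JNK and ERK, and lies on the minus strand of chromosome 17 from 26505590 to 26562128 (GRCm38, GENCODE vM21), a gene model that reaches well upstream of the RefSeq start used for the promoter. Its exons overlap those of Ergic1 on the other strand, and whether counting used strand is not given. It was at 525 and 186 CPM in DMSO mice 1 and 2, at 1716, 319.7, 245 and 581 CPM in I.P. mice 1 to 4, and at 2326 and 2517 CPM in S.C. mice 1 and 2. The S.C. mice were close to each other and above all other mice, and the DMSO mice were 2.82-fold apart. Group means were 356 ± 240 CPM (SD, n = 2) with DMSO, 715 ± 682 CPM (SD, n = 4) by I.P. and 2422 ± 135 CPM (SD, n = 2) by S.C. The log2 fold change against DMSO was 2.74 by S.C. (standard error 0.55) and 0.99 by I.P. (standard error 0.78). With either DMSO mouse left out, the S.C. value was 3.66 (without mouse 1) or 2.17 (without mouse 2). The I.P. value lay within the spread of the I.P. mice, and without I.P. mouse 1 it was 0.11. Between S.C. and I.P. mice the log2 difference was 1.76 (standard error 0.67), or 2.67 without I.P. mouse 1, and the 2 groups did not overlap.

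Dusp2 (PAC-1) is a nuclear phosphatase of activated leukocytes, on chromosome 2 from 127336159 to 127338376. It was at 3.46 and 7.58 CPM in DMSO mice, 97.0, 10.2, 9.48 and 7.12 CPM in I.P. mice 1 to 4, and 96.0 and 68.9 CPM in S.C. mice. I.P. mouse 1 was at the level of the S.C. mice and 10.9-fold above the mean of the other I.P. mice, of which mice 2 and 3 lay just above DMSO mouse 2. The log2 fold change against DMSO was 3.87 by S.C. (standard error 0.54), the largest of the 9 genes, and 2.46 by I.P. (standard error 1.17). The S.C. value was 3.41 without DMSO mouse 1 and 4.54 without DMSO mouse 2. Leaving out I.P. mouse 1 brought the I.P. value to 0.69. The S.C. and I.P. mice overlapped, with a log2 difference of 1.42 (standard error 0.98), and without I.P. mouse 1 this was 3.21.

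Dusp5 encodes a nuclear phosphatase selective for ERK, on chromosome 19 from 53529109 to 53542431, where its exons overlap those of AC137853.2 on the other strand. It was low in DMSO mice, at 1.08 and 2.47 CPM (16 and 43 counts), and at 23.7 and 17.5 CPM (353 and 241 counts) in S.C. mice. In I.P. mouse 1 it was at 12.8 CPM, and in I.P. mice 2 to 4 at 1.34, 0.959 and 1.69 CPM, within or just below the range of the DMSO mice. All other mice thus lay below both S.C. mice. The log2 fold change against DMSO was 3.50 by S.C. (standard error 0.69), with 3.02 without DMSO mouse 1 and 4.204 without DMSO mouse 2. By I.P. it was 1.21 (standard error 1.11), and it changed sign to -0.43 without I.P. mouse 1. Between S.C. and I.P. mice the log2 difference was 2.30 (standard error 0.98), and without I.P. mouse 1 it was 3.95.

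Dusp4 (MKP-2), on chromosome 8 from 34807297 to 34819894, is a nuclear relative of Dusp1. It was at 3.26 and 6.14 CPM in DMSO mice, 11.6, 6.69, 3.84 and 14.1 CPM in I.P. mice 1 to 4, and 16.7 and 20.2 CPM in S.C. mice. Here I.P. mouse 4, not I.P. mouse 1, was the highest of its group, and 3 of the 4 exceeded the higher DMSO mouse. The log2 fold change was 1.95 by S.C. (standard error 0.60), 0.93 by I.P. (standard error 0.57) and 1.03 between S.C. and I.P. mice (standard error 0.54). The S.C. call of Dusp4 was lost without either DMSO mouse, with log2 fold changes of 1.55 without DMSO mouse 1 and 2.47 without DMSO mouse 2.

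Dusp6 encodes MKP-3, the cytoplasmic phosphatase of ERK, on chromosome 10 from 99263231 to 99267489. It was at 227 and 293 CPM in DMSO mice and at 118 and 64.9 CPM in S.C. mice. In I.P. mice 1 to 4 it was at 80.8, 298, 152 and 196 CPM, so that I.P. mouse 1 lay among the S.C. mice, I.P. mice 3 and 4 between the S.C. and DMSO mice, and I.P. mouse 2 above both DMSO mice. The log2 fold change was -1.54 by S.C. (standard error 0.40) and -0.52 by I.P. (standard error 0.44). Leaving out I.P. mouse 1 brought the latter to -0.27. Dusp6 was the only 1 of the 9 genes called lower in any comparison, and between S.C. and I.P. mice its log2 difference of -0.99 (standard error 0.51) was not called. Dusp7 (MKP-X), its closest relative, on chromosome 9 from 106368632 to 106375724, was at 31.1 and 56.2 CPM in DMSO mice, 31.4 to 45.9 CPM in I.P. mice and 32.5 and 27.7 CPM in S.C. mice. All I.P. mice lay between the DMSO mice, and the S.C. mice lay near DMSO mouse 1. The S.C. log2 fold change of -0.56 (standard error 0.43) ran from -0.94 without DMSO mouse 1 to -0.08 without DMSO mouse 2.

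Because Dusp1 and Dusp6 were counted in the same library, the ratio of their counts does not depend on how libraries are scaled. There were 2.32 and 0.637 Dusp1 counts per Dusp6 count in DMSO mice, and 19.8 and 38.8 in S.C. mice. I.P. mouse 1 was at 21.2, and I.P. mice 2 to 4 were at 1.07, 1.61 and 2.96. The ratio of I.P. mouse 1 was thus between those of the S.C. mice, and the other 3 I.P. mice lay close to or within the range of the DMSO mice.

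**Figure D2:**
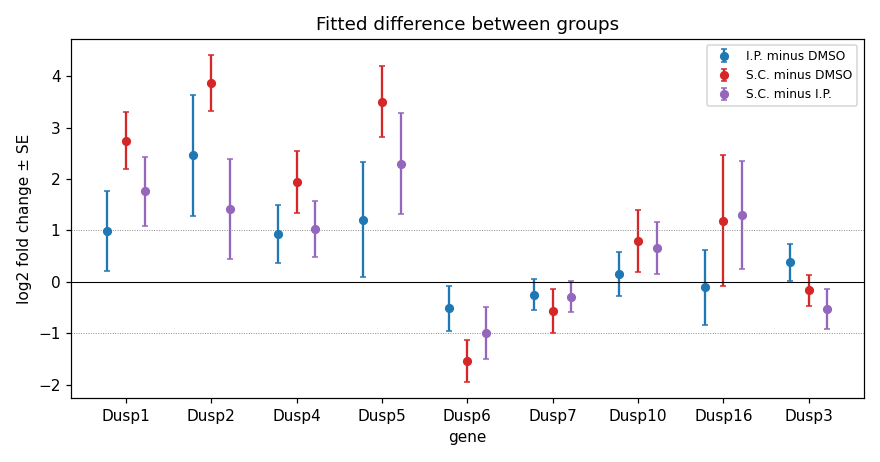
Log2 fold change and its standard error for each of the 9 genes in 3 comparisons, I.P. minus DMSO, S.C. minus DMSO and S.C. minus I.P. Dotted lines mark a 2-fold difference. The S.C. values of Dusp1, Dusp2, Dusp4 and Dusp5 lie between 1.95 and 3.87 and that of Dusp6 at -1.54.

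Dusp10 (MKP-5), on chromosome 1 from 184013302 to 184075636, and Dusp16 (MKP-7), on chromosome 6 from 134715468 to 134792625, encode the phosphatases that prefer JNK and p38. Dusp10 was at 6.99 and 5.17 CPM in DMSO mice, 4.61 to 9.93 CPM in I.P. mice and 9.08 and 12.4 CPM in S.C. mice. Both S.C. mice lay above both DMSO mice, a log2 difference of 0.80 (standard error 0.61), and S.C. mouse 1 lay within the range of the I.P. mice. Dusp16 was at 3.26 and 2.30 CPM in DMSO mice, at 5.80 CPM in I.P. mouse 1 and 1.17 to 1.92 CPM in I.P. mice 2 to 4. The S.C. mice were 13.7-fold apart for Dusp16, with 0.874 CPM (13 counts) in mouse 1 and 11.9 CPM (164 counts) in mouse 2. Its S.C. log2 fold change of 1.19 (standard error 1.28) was -1.71 without S.C. mouse 2 and 2.08 without S.C. mouse 1. Dusp3 (VHR), on chromosome 11 from 101971143 to 101987013, encodes a small phosphatase of ERK and JNK, and its exons overlap those of Gm20659 on the other strand. It was at 71.2 and 69.1 CPM in DMSO mice, 66.0 and 61.6 CPM in S.C. mice and 149, 58.2, 80.0 and 79.7 CPM in I.P. mice 1 to 4. Outside I.P. mouse 1 all values lay between 58.2 and 80.0 CPM. Its log2 fold change was -0.16 by S.C. (standard error 0.30) and 0.38 by I.P. (standard error 0.36), and the latter was 0.05 without I.P. mouse 1.

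The comparisons of the 2 routes with DMSO share the 2 DMSO mice. When the 2 routes were compared directly, 2 of the 9 genes were called, Dusp1 and Dusp5, both higher by S.C., where 7.05% of 12206 genes tested were called (2.41% higher and 4.64% lower). Both S.C. mice lay above all I.P. mice for 3 of the 9 genes, Dusp1, Dusp4 and Dusp5, where 8.05% of all genes tested did, and below all I.P. mice for 0 of the 9, where 10.5% did (18.5% in either direction). Both S.C. mice lay above both DMSO mice for 5 of the 9 genes and below both for 2, against 17.1% and 17.2% of all genes tested (34.3% in either direction). The I.P. and DMSO mice overlapped for all 9 genes, where 14.1% of all genes tested did not overlap (7.31% higher and 6.83% lower by I.P.). The direct calls depended on single mice. Without I.P. mouse 1, 4 genes were called, Dusp1, Dusp2 and Dusp5 higher and Dusp6 lower, and without I.P. mouse 3 only Dusp1 was. Without I.P. mouse 2, without I.P. mouse 4 or without S.C. mouse 2, 0 were called, and without S.C. mouse 1 only Dusp16 was.

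Levels were compared between genes as CPM per kilobase of merged exons. In DMSO mice Dusp1 and Dusp6 led, at 107 ± 72.4 and 82.9 ± 14.9 CPM per kilobase (SD, n = 2), and their order differed between the 2 mice. Dusp3 and Dusp7 followed at 14.98 ± 0.314 and 13.0 ± 5.29, a difference within the spread of Dusp7. Dusp2, Dusp10 and Dusp4 were at 2.76 ± 1.45, 1.998 ± 0.423 and 1.71 ± 0.745, within each other's spread. Dusp5 and Dusp16 were lowest, at 0.719 ± 0.396 and 0.356 ± 0.0870, again within the spread of Dusp5. In S.C. mice Dusp1 was at 731 ± 40.7 CPM per kilobase, Dusp2 followed at 41.2 ± 9.57 and then Dusp6 at 29.1 ± 11.9 (SD, n = 2). Of the summed level of the 9 genes per kilobase, Dusp1 made up 60.7% and 29.6% in DMSO mice and 84.6% and 88.7% in S.C. mice, while Dusp6 made up 27.7% and 49.1% in DMSO mice and 4.52% and 2.42% in S.C. mice. In I.P. mouse 1 these shares were 80.0% for Dusp1 and 3.98% for Dusp6. In I.P. mice 2 to 4 Dusp1 took 42.3%, 46.5% and 63.6%, and Dusp6 took 41.6%, 30.6% and 22.7%. Shares of a sum depend on each other, so that of Dusp6 falls where Dusp1 rises, even with no change in Dusp6. The mean level of Dusp6 itself was 82.9 CPM per kilobase in DMSO mice and 29.1 in S.C. mice, a smaller relative change than that of its share. In bulk RNA, fewer cells that express a gene and less of its RNA per cell cannot be told apart.

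**Figure D3:**
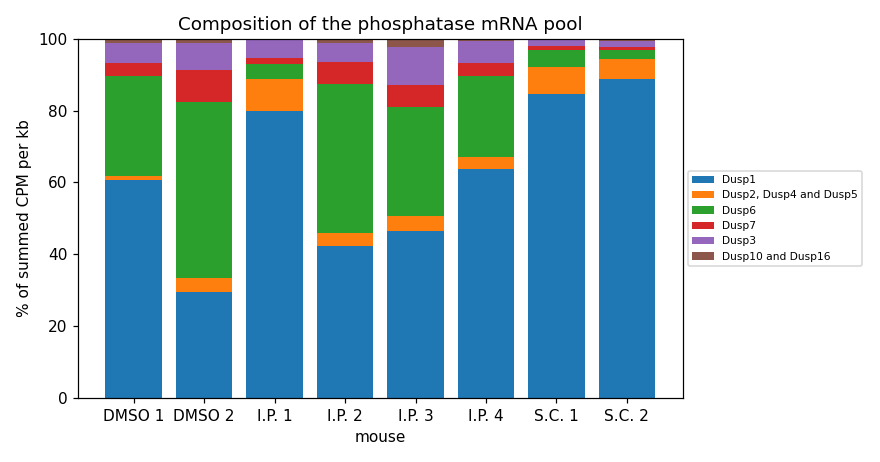
Share of each phosphatase gene, in percent of the summed CPM per kilobase of the 9 genes, for every mouse. Dusp1 takes 84.6% and 88.7% in the S.C. mice and 80.0% in I.P. mouse 1, and 29.6% to 63.6% in the other 5 mice.

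To set the 9 genes beside the rest of their pathway, 125 other genes of MAP kinase signaling found in the count table were examined from lists written by gene name. Where 2.0% of all genes tested were called by I.P. and 5.06% by S.C., lists of this size can hold few calls or none. Of 10 MAP kinases, 7 MAP2Ks and 19 MAP3Ks and adaptors tested by I.P., 0 were called, and of 9, 7 and 19 tested by S.C., 0 were called. The same held for 5 and 3 scaffold genes. Of 10 kinases downstream of the MAP kinases, 0 were called by I.P. and 1 by S.C., Mknk2. For Mapk14, the gene of p38α, the S.C. value was 0.21 on the log2 scale (standard error 0.33) and the I.P. value -0.005 (standard error 0.21). Mapk3, the gene of ERK1, had 0.83 (standard error 0.43) by S.C., and Mapk8, the gene of JNK1, had 0.26 (standard error 0.93). These 3 kinases are named as substrates of the phosphatases, after their values were seen. Among feedback inhibitors of the ERK pathway other than phosphatases (Sprouty, Spred and related genes), 0 of 9 by I.P. and 0 of 8 by S.C. were called. Among other phosphatases of MAP kinases (PP2A, PP2C and tyrosine phosphatases), 0 of 9 by I.P. and 0 of 8 by S.C. were called. Of the remaining genes named Dusp or Styx, 1 of 12 was called by I.P., the atypical phosphatase gene Dusp28, and 0 of 11 by S.C., beside the same 2.0% and 5.06% of all genes. Dusp28 was at 3.32 and 2.47 CPM in DMSO mice and 4.01 to 11.1 CPM in I.P. mice, higher by 1.18 on the log2 scale (standard error 0.52, edgeR adjusted p = 0.98).

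Output genes of the pathway, transcription factors among them, were listed in 2 groups. Of 14 genes listed for ERK output, 7 were called against DMSO, 6 higher and 1 lower, and of 11 genes listed for p38 and JNK output 5 were called, all higher, where 5.06% of all genes tested were called. By I.P., 0 of 15 and 2 of 11 were called, and the difference between the routes in these counts was not tested. Fosb, an AP-1 subunit, was at 1.90 and 0.861 CPM in DMSO mice and 55.7 and 28.5 CPM in S.C. mice, higher by 4.90 on the log2 scale (standard error 0.69, edgeR adjusted p = 0.563). Zfp36, which encodes the mRNA-destabilizing protein tristetraprolin, had 1.98 (standard error 0.30, edgeR adjusted p = 0.652), with both S.C. mice (555 and 587 CPM) above both DMSO mice (154 and 131 CPM). Junb, Egr1, Fos and Gadd45b had log2 fold changes of 2.54, 2.56, 2.29 and 1.73 (edgeR adjusted p = 0.747 each), and for each the S.C. values exceeded the DMSO values. Mknk2, a kinase downstream of ERK and p38, had 1.18 (standard error 0.43, edgeR adjusted p = 0.869). The only gene called lower was Ccnd1 (cyclin D1), named after its value was seen, at 84.3 and 79.1 CPM in DMSO mice and 30.7 and 43.6 CPM in S.C. mice, with -1.16 (standard error 0.35, edgeR adjusted p = 0.747). By I.P., Ddit3 (CHOP) and Gadd45b were called higher, with 1.19 (standard error 0.29) and 1.83 (standard error 0.61), all 4 I.P. values exceeding the DMSO values for each, and an edgeR adjusted p of 0.98. Across all genes, edgeR's quasi-likelihood test gave 0 genes with an adjusted p under 0.05 in each comparison, while an unadjusted P under 0.05 was reached by 418 (3.43%) by I.P., 632 (5.41%) by S.C. and 1049 (8.59%) between the routes. DESeq2 gave 19, 107 and 234 adjusted calls and edgeR's likelihood ratio test 10, 179 and 265.

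Between S.C. and I.P. mice, 6 of 107 pathway genes were called, 4 higher and 2 lower, where 7.05% of all genes tested were called (2.41% higher and 4.64% lower), so the count is no higher than the share over all genes. Ptgs2, the cyclooxygenase-2 gene, was higher by S.C., with 31.6 and 346 CPM in S.C. mice against 8.51 to 21.9 CPM in I.P. mice. The log2 difference was 3.68 (standard error 0.76, edgeR adjusted p = 0.268). The 2 S.C. mice were far apart, and the DMSO mice were at 40.4 and 7.52 CPM, on either side of S.C. mouse 1. Against DMSO, Ptgs2 was not called by S.C. Zfp36, Phlda1 and Egr2 were also called higher, the latter pair with S.C. and I.P. mice that overlapped. The calls of Ppm1l and Mapk12, both lower, rest on 0 and 1 counts and on 0 and 0 counts in the S.C. mice, so no fold change is given.

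Genes whose profile over the 8 mice lay nearest to that of a phosphatase were found by the root mean square difference of log2 CPM, each gene centred on its own mean, among 9327 genes whose mean reached 5 CPM. This was done for the 3 of the 9 genes that varied most. Dusp1 was nearest to Junb (0.36 on the log2 scale), Ccrl2 (0.36) and Fos (0.36). Junb and Fos encode AP-1 subunits and Ccrl2 a chemerin-binding receptor. Dusp2 and Dusp5 had 0.58 between them, which made Dusp5 the nearest to Dusp2, followed by Id3 (0.61) and Cxcl2 (0.65). Dusp5 was nearest to Cd14 (0.55), the lipopolysaccharide co-receptor gene, then to Dusp2, then to Nlrp3 (0.68), an inflammasome sensor gene. These are descriptions over 8 mice, which share their libraries and groups.

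**Figure D4:**
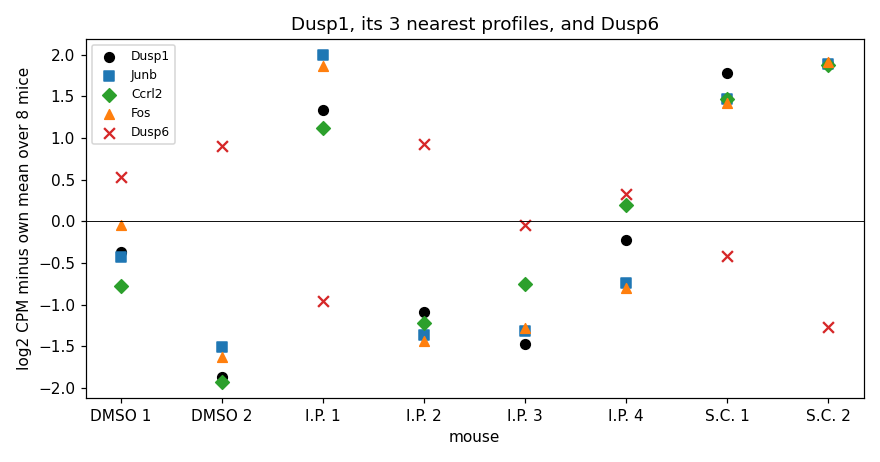
Log2 CPM of Dusp1, its 3 nearest genes Junb, Ccrl2 and Fos, and Dusp6 in each mouse, each gene minus its own mean over the 8 mice. The first 4 genes are high in I.P. mouse 1 and both S.C. mice and low in DMSO mouse 2 and I.P. mice 2 and 3, and Dusp6 has its 3 lowest values in I.P. mouse 1 and both S.C. mice.

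A list of 20 genes known to rise when tissue is dissociated, among them Fos, Jun, Egr1 and heat shock genes, moved with the S.C. results. Of the 20, 12 were called higher against DMSO by S.C. and 0 lower, where 2.29% of all genes tested were called higher and 2.77% lower. By I.P. 0 were called higher and 2 lower, where 1.53% and 0.468% of all genes were. The mean log2 CPM of the 20 genes was 7.15 and 6.62 in DMSO mice, 8.62 in I.P. mouse 1, 6.57, 6.46 and 6.99 in I.P. mice 2 to 4, and 8.46 and 8.76 in S.C. mice, the same 3 mice being high as for Dusp1. Of the list, 9 genes are also pathway genes counted above and 0 are phosphatase genes. The latter count reflects how the list was written and is not a result of these data. Junb and Fos, given above among the genes nearest to Dusp1, are on the list. The heat shock genes Hspa1a and Hspa1b did not follow it in I.P. mouse 1, where they were at 114 and 58.0 CPM against 374 and 485 CPM in DMSO mouse 1 and 222 and 217 CPM in DMSO mouse 2. In I.P. mice 2 to 4 both were below both DMSO mice as well, with Hspa1a at 171, 61.0 and 157 CPM and Hspa1b at 150, 44.4 and 121 CPM. In S.C. mice Hspa1a was at 293 and 704 CPM and Hspa1b at 377 and 855 CPM. Of the other heat shock genes listed, Hspa8 had its lowest value in I.P. mouse 1 (1478 CPM). Dnajb1 did follow the list, at 93.6 CPM in I.P. mouse 1, 82.9 and 89.1 CPM in S.C. mice and 48.8 and 41.5 CPM in DMSO mice. The part of dissociation, of the other cells' markers given above and of the order of the sample numbers in the phosphatase results was not tested.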

How the data were processed

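RNA-seq counts of TAMs from 8 mice (1 library each) were used. The authors deposited raw counts per gene symbol, as whole numbers without normalization. Reads were aligned to mm10, and the study's methods name bowtie2 and RSEM, while the submitters' processing notes list TopHat2 and edgeR. Which made the table is not given in the sources used here, nor whether counting used strand. Exons of Dusp1, Dusp3 and Dusp5 overlap an antisense gene, whose reads could then not be told apart.

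Groups came from the sample labels. Each pair of groups was fitted on all genes in R 4.3.3 with edgeR 4.0.16 and limma 3.58.1 (filterByExpr, minimum count 10 and total 15, TMM, two-sided quasi-likelihood test, Benjamini-Hochberg adjustment). The standard error is the log2 fold change divided by the square root of F. CPM were TMM-scaled over all 8 libraries, and 2 was the prior count of log2 CPM. At the depth of 14127506 to 17577466 counts per library, 3 counts are 0.169 to 0.218 CPM. The genes and lists were chosen with earlier results of these data known. Text names all 9 phosphatases, up to 3 called genes per list and comparison by P, and the 3 nearest genes of the 3 most variable phosphatases. Coordinates are from GENCODE vM21 (GRCm38, the assembly of mm10). Promoters are from RefSeq (GRCm38.p6). Alternatives were RLE factors, library size only, no filter, 1 CPM in 2 samples, a likelihood ratio test, DESeq2 1.42.0, 1 fit of all groups, a replicate block and each mouse left out. The block used only replicate numbers found in both groups, so I.P. mice 3 and 4 were not in it. Crossed replicate numbers were added after the data were seen. The fit was tested on simulated data.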

Additional observations from a re-analysis of the deposited data

Results flagged for a closer look

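Among the 4 I.P. mice, the gap between I.P. mouse 1 and the nearest other mouse exceeded Dixon's 95% critical value, as a share of the group's range, for 3 of the 9 phosphatase genes. These were Dusp2 (97.05 CPM in I.P. mouse 1, 0.966 of the range), Dusp5 (12.81 CPM, 0.938) and Dusp16 (5.80 CPM, 0.838). Chance marks about 1 in 20 groups, and 9 were examined, all in the same 4 libraries.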

How the results depend on the processing

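With 2 to 4 mice a group, the precision is set by the mice, not by depth. Of 369 alternative log2 fold changes of the 9 genes, 359 moved by less than the replicate SD and 0 called values changed sign. That SD, of log2 CPM within groups, is a wide measure and takes in I.P. mouse 1. For Dusp1 it was 1.075, so the move by I.P. from 0.993 to 0.108 without that mouse is among the 359. Values that were not called did change sign, such as Dusp5 by I.P. without I.P. mouse 1 (-0.426) and Dusp16 by S.C. without S.C. mouse 2 (-1.714). Against DMSO by S.C., 5 phosphatase genes were called under all 9 alternatives that kept every mouse, the same 5 genes each time. Between the routes, 2 were called under all 8 alternatives other than leaving out single mice. The replicate block used only numbers found in both groups. It therefore left out I.P. mice 3 and 4, both by I.P. and between the routes. By I.P., where 0 were called, no filter and the likelihood ratio test called 1 (Dusp2) and the replicate block 2 (Dusp1 and Dusp2). Called pathway genes by I.P., 3, were 7 under the likelihood ratio test, 7 under DESeq2 and 6 with the replicate block (3 higher and 3 lower, 2 of the 6 shared with the 3, which were all higher). All genes called by I.P., 243, were 160 in 1 fit of all groups, and their split of 186 higher and 57 lower was 143 and 148 with the block. Between the routes, the replicate block gave 2 pathway genes in place of 6 and 389 genes in place of 860. In both comparisons that hold I.P. mice, its effect cannot be told apart from that of leaving out I.P. mice 3 and 4. Same-numbered mice deviated with correlations of -0.187 to 0.169, so the numbers were not taken to pair mice, and in the S.C. comparison, at -0.185, crossing the numbers gave 5 phosphatase genes, 15 pathway genes and 475 genes in all, against 5, 14 and 429 uncrossed. Leaving out each mouse in turn gave 0 to 2 phosphatase genes by I.P., 4 to 7 by S.C. and 0 to 4 between the routes. Pathway genes ran from 2 to 7, 8 to 36 and 3 to 21, and all genes from 116 to 361, 113 to 3432 and 632 to 2115, in the same order. The lowest S.C. counts of pathway and all genes were without DMSO mouse 2, the highest without S.C. mouse 2, with 206 genes in all without DMSO mouse 1, and 33 and 2989 without S.C. mouse 1, where the lone S.C. mouse was assumed to vary like the other group. By library size alone the median log2 fold change of all genes by S.C. shifted by -0.153, with 196 genes called higher and 429 lower against 268 and 323, and between the routes by -0.105. By I.P. the lowest count of all genes was without DMSO mouse 1, and between the routes the pathway counts were 21 and 17, and the counts of all genes 2003 and 2115, without S.C. mouse 1 and 2. The causes were not tested.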

Other observations

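Dusp8 and Dusp9, the remaining members of the usual MAP kinase phosphatase family, and a few other genes of the Dusp name also varied between mice. They are named here after their values were seen. Dusp8, a JNK and p38 phosphatase gene, was at 1.70 and 1.72 CPM in DMSO mice, 4.98 and 3.28 CPM in S.C. mice, 11.5 CPM in I.P. mouse 1 and 1.28 to 3.09 CPM in I.P. mice 2 to 4. Its log2 fold change by S.C. was 1.24 (standard error 0.89), and it was not called by either route. Dusp9 stayed at or below 2.80 CPM in every mouse. Each I.P. mouse (0.621 to 2.80 CPM) lay above both DMSO mice (0.407 and 0.459 CPM), as for 7.31% of all genes tested. Its log2 fold change by I.P. was 1.81 (standard error 0.855), and it was not called. Dusp18 was at 21.0 CPM in I.P. mouse 1 and 0.404 to 3.28 CPM in the other 7 mice. Dusp14 was at 4.95 CPM (68 counts) in S.C. mouse 2 and at or below 0.956 CPM in the other 7 mice. Dusp19 was at 1.53 CPM (21 counts) in S.C. mouse 2 and at 11.1 CPM in S.C. mouse 1. For Dusp14, Dusp16 and Dusp19 the 2 S.C. mice were therefore further apart than the DMSO mice were.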
